A study of Homo sapiens with 9 samples.

Results

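The genes of ER translocation, folding and secretion form a list of 57 members that was drawn up by gene symbol. Its members are the rows of the deposited count table that carry those symbols, 57 of 59050 symbols, and all 57 were among the 13463 genes that passed the expression filter (CPM above 1 in at least 3 samples). Gene expression was measured by RNA sequencing in MEC1, an established cell line derived from chronic lymphocytic leukemia (CLL), a malignancy of mature B cells. The study tested bioprinting into a hydrogel scaffold as a long-term culture model for CLL cells, also with primary cells and viability assays. Its RNA sequencing asked how bioprinting changes the transcriptome of MEC1 cells, and the 9 samples fall into 3 groups of 3: MEC1 cells in conventional 2D culture, MEC1 cells after 7 days in bioprinted 3D scaffolds (3D_7d) and MEC1 cells after 14 days in them (3D_14d). The labels give MEC1, a single line, for every sample, name no drug and give no time in culture for the 2D samples. RNA from scaffolds went through TRIzol, DNase I and a column, and RNA from 2D cultures went through the column kit alone, so that for 3D against 2D the culture and the extraction cannot be told apart. Day 14 and day 7 share the extraction. The labels number the replicates and do not say that they are separate cultures, so the p-values measure the spread between these samples, which may be technical.

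Proteins that will be secreted or sit in membranes are recognised while they are made by the signal recognition particle (SRP), which brings the ribosome to its receptor on the endoplasmic reticulum (ER) and on to the Sec61 channel. In the ER the signal peptide is cleaved, sugars are attached, and chaperones led by BiP (HSPA5) and GRP94 (HSP90B1) fold the chain, while misfolded chains are extracted and degraded, and finished ones leave in COPII vesicles. In B cells the main cargo of this route is immunoglobulin, and the sensors ATF6, IRE1 (ERN1) and PERK adjust the machinery to the load in the unfolded protein response.

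The counts summed to 54662799 in the shallowest library and to 85968686 in the deepest. CPM below are counts scaled to library size with TMM factors, RPKM are the same values per kilobase of exon, and calls rest on the quasi-likelihood test of edgeR, with p-values adjusted by Benjamini-Hochberg over the 13463 genes, at an adjusted p of at most 0.05. Scaled to total counts instead of TMM, all genes have a median change (log2) of -0.161 at day 7 and -0.184 at day 14, a shift of -0.157 and of -0.206 from TMM, and the changes below are relative to the TMM reference. The B-cell markers MS4A1, CD79A, CD79B, PAX5 and CD22 passed the expression filter, and MS4A1 measured 787, 855 and 882 CPM in 2D, 1670, 1522 and 1379 CPM at day 7 and 895, 1082 and 1232 CPM at day 14, highest at day 7. The others went different ways. CD22 fell at both times (log2 fold change -1.12, adjusted p = 7.36e-04, and -0.71, adjusted p = 0.014). CD79A and CD79B were not called at day 7 and rose at day 14 (1.37, adjusted p = 1.01e-04, and 1.13, adjusted p = 0.00135). PAX5 was called at neither time. Markers of T and NK cells summed to at most 6.71 CPM in any sample, myeloid markers to at most 5.15 and stromal markers to at most 11.4, and the myeloid marker CD68 had no count in any sample. In bulk RNA a change of a transcript per cell and a change in the share of cells that carry it cannot be told apart. Plasma cell markers summed to 1540 to 1560 CPM in 2D, 3190 to 3480 at day 7 and 3310 to 4280 at day 14: JCHAIN and PRDM1 rose at both times, IRF4 rose at day 7, SDC1 fell at both times (log2 fold change -1.15, adjusted p = 0.00192, and -0.85, adjusted p = 0.013) and XBP1 was not called, and the part of plasma cell markers in the members' changes was not tested. The day 14 call of PRDM1 was close to the threshold (log2 fold change 0.60, adjusted p = 0.047), and its day 14 samples overlapped 2D. The library of 3D_14d replicate 1 stood apart: its counts differed from those of the other day 14 libraries by a chi-square per gene of 253 and 305, against 155 between those others and 22.5 to 81.9 within the other groups.

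At day 7 against 2D, 17 of the 57 members rose and 10 fell, against a background of 22.2% of all tested genes called up and 21.2% called down, and 30 members were not called. The median log2 fold change of the members was 0.18, that of all tested genes was -0.0039, and the members ranged from -2.35 (ERN1) to 1.28 (ASNA1). At day 14 against 2D, 10 members rose and 9 fell, against 19.0% and 17.2% of all tested genes, and the median was 0.02 for members and for all genes alike. With the total counts alone as the scaling, 15 members were up and 14 down at day 7, against 16.0% and 26.6% of all tested genes, and 6 were up and 14 down at day 14, against 11.9% and 24.1%. Both comparisons use the same 2D samples. Side by side, 7 members were called up at both times (ASNA1, SPCS1, DNAJB11, SDF2L1, CALR, HERPUD1 and ATF6), 6 were called down at both (SEC63, SSR3, OSTC, ERN1, LMAN1 and KDELR2), 10 were called up at day 7 only, 4 were called down at day 7 only, 3 were called up at day 14 only, 3 were called down at day 14 only, and 24 were called at neither. No member was called in opposite directions. The matching shares of all tested genes were not computed for these combined counts. Another gene shares over 10% of the exonic bases of 14 members, the most in KRTCAP2 (82.4%), SPCS1 (63.6%), SRP19 (38.5%), DNAJB11 (34.7%) and PDIA6 (29.7%), and reads there cannot be assigned with certainty. At day 7 the 3 samples lay wholly above the 2D samples for 25 members and wholly below them for 16, against 32.2% and 32.4% of all tested genes. At day 14 these numbers were 13 and 14 members, against 24.2% and 25.5% of all tested genes.

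**Figure D1:**
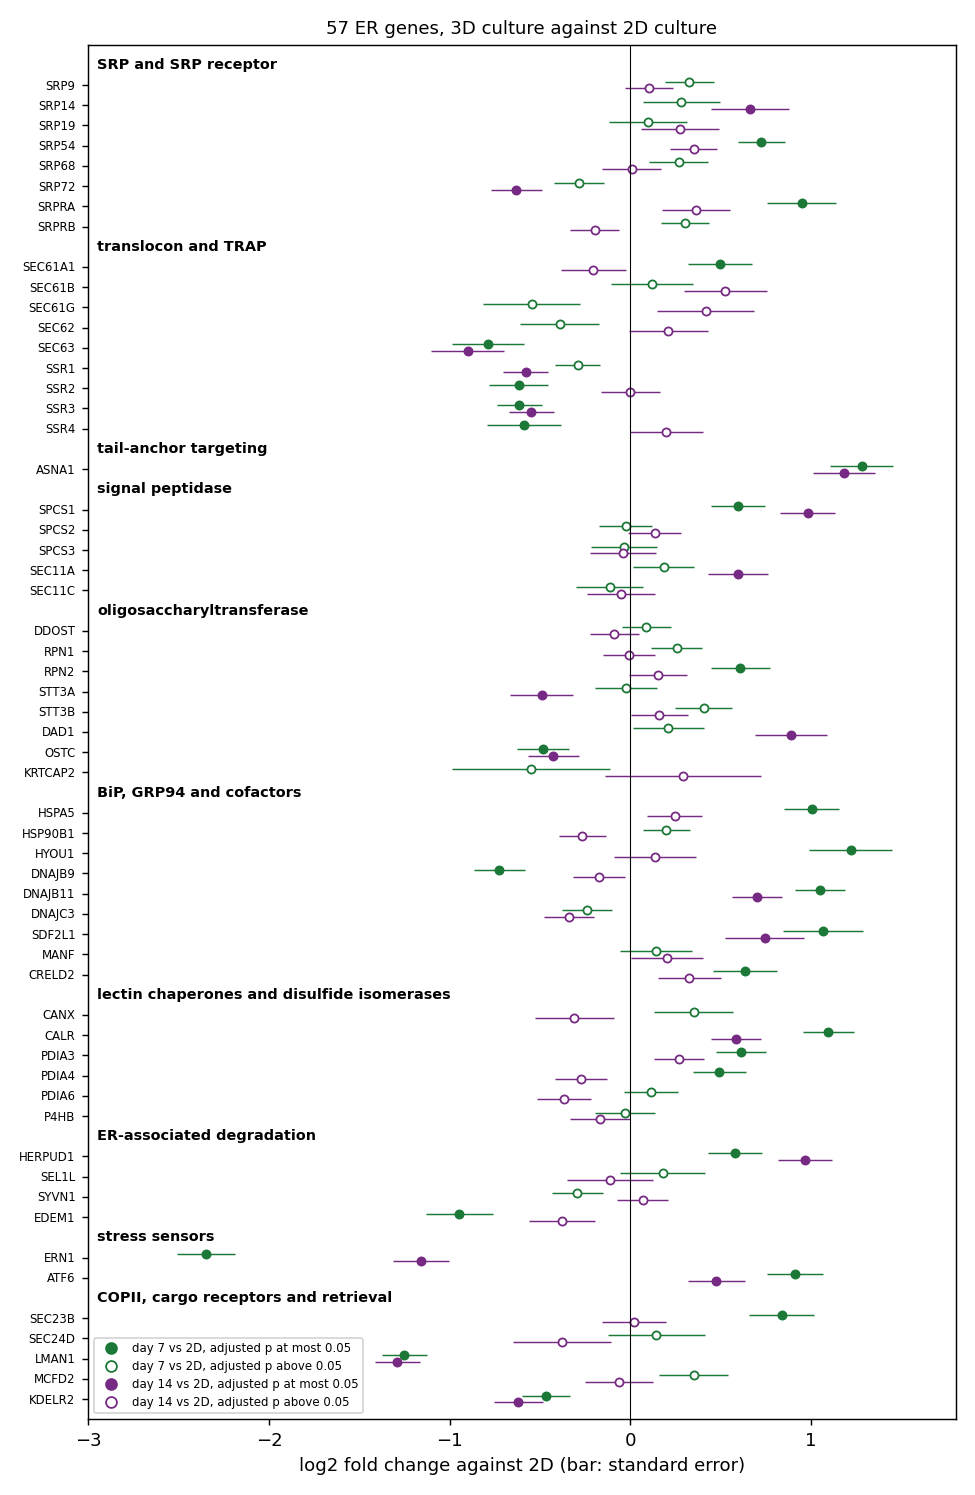
Log2 fold change against 2D (x axis) of each of the 57 members (y axis, grouped by role) at day 7 (green) and day 14 (purple); bars are standard errors, and filled points have an adjusted p of at most 0.05. ERN1 and LMAN1 lie farthest to the left, ASNA1 and HYOU1 farthest to the right at day 7, and most folding factors that rose at day 7 are nearer to 0 at day 14.

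A type of regulatory sequence known from the unfolded protein response stands near the start of 9 members, and it is printed before their values. Of these, 6 rose at day 7 and 3 were not called, against 22.2% of all tested genes called up and 21.2% called down. The ER stress response element (ERSE) is CCAAT, 9 free bases and CCACG, and ERSE-II is ATTGG, 1 free base and CCACG. Both were searched on both strands in the window of 250 bases before to 50 bases after each transcription start (RefSeq, GRCh38.p14), which was at hand for 49 of the 57 members. ERSE stood in the window of 25 of 27305 gene symbols (0.0916%) and of 6 of the 49 members (12.2%), and ERSE-II in 19 symbols (0.0696%) and in 3 members (6.12%). The members were picked for their ER function and include targets of that response such as HSPA5. A higher share than in all symbols was thus built into the list and is no result of these data. No member window held both, and of 81 other genes of the pathway 2 had ERSE and 0 had ERSE-II. The stretches below are written 5′ to 3′ on the strand of the gene, with the match in capitals; those that open with CGTGG hold the element on the opposite strand. The first 6 belong to members that rose at day 7.
HSPA5 (chr9:125241371-125241429, minus strand), ERSE: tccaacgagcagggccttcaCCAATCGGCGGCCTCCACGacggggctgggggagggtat
CALR (chr19:12938364-12938422, plus strand), ERSE: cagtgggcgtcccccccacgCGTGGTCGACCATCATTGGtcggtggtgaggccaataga
CRELD2 (chr22:49918534-49918592, plus strand), ERSE: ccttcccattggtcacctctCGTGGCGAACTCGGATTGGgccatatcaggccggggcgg
HYOU1 (chr11:119057254-119057304, minus strand), ERSE-II: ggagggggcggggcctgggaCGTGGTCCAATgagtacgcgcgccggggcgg
SDF2L1 (chr22:21642094-21642144, plus strand), ERSE-II: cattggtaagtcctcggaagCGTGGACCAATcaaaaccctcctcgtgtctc
HERPUD1 (chr16:56932005-56932055, plus strand), ERSE-II: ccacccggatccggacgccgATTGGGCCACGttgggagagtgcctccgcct
HSP90B1 (chr12:103930196-103930254, plus strand), ERSE: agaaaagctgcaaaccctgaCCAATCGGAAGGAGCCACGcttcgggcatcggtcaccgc
CANX (chr5:179698758-179698816, plus strand), ERSE: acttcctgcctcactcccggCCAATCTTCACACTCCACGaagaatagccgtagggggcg
PDIA6 (chr2:10812833-10812891, minus strand), ERSE: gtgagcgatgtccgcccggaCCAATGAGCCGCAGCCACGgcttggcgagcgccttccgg

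The match in HSPA5 lies 66 to 48 bases before the start. HSP90B1 holds ERSE and HYOU1 holds ERSE-II at 2 places each, of which 1 is shown. Of these 9 members, 6 rose at day 7, 0 fell and 3 were not called (HSP90B1, CANX and PDIA6), with log2 fold changes from 0.11 to 1.22 and a median of 0.64. At day 14, 3 of the 9 were called up (CALR, SDF2L1 and HERPUD1) and 6 were not called, with a median of 0.25. Of all tested genes, 22.2% were called up and 21.2% down at day 7, and 19.0% and 17.2% at day 14. By the call at day 7, ERSE was present in 3 of 13 members with a window that rose, in 0 of 9 that fell and in 3 of 27 not called, and ERSE-II in 3 of 13, 0 of 9 and 0 of 27. The calls of all genes that hold an element were not computed, so these counts are not a result about the elements. A match is a run of letters and not a binding site, and the elements were not tested for use.

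BiP, GRP94 and their cofactors were the role with the most calls at day 7: 5 of 9 rose, 1 fell and 3 were not called, with a median log2 fold change of 0.64. For this and every later count by role, 22.2% of all tested genes were called up and 21.2% down at day 7. At day 14 these shares were 19.0% and 17.2%. HSPA5 (BiP), the Hsp70 chaperone of the ER lumen and the main target of the unfolded protein response, measured 1349, 1352 and 1315 CPM in 2D, 2226, 3077 and 2748 CPM at day 7 and 1512, 1824 and 1427 CPM at day 14. Its day 7 samples all lay above 2D, and its day 14 samples lay between the other groups, above 2D and below day 7. The rise at day 7 was 2-fold (log2 fold change 1.00, SE 0.15, adjusted p = 2.94e-04), the difference at day 14 was not called (log2 fold change 0.25, SE 0.15, adjusted p = 0.225), and the level fell between the time points (log2 fold change -0.76, SE 0.15, adjusted p = 0.00408). DNAJB11, a co-chaperone that presents substrates to BiP, measured 59.5, 54.8 and 55.6 CPM in 2D, 106, 131 and 115 CPM at day 7 and 102, 83.4 and 90.03 CPM at day 14. Every 3D sample exceeded every 2D sample, at day 7 (log2 fold change 1.05, SE 0.14, adjusted p = 1.16e-04) and at day 14 (log2 fold change 0.70, SE 0.14, adjusted p = 0.00217), and 34.7% of its exonic bases are shared with TBCCD1 and AC068631.2, so that reads there may belong to either. SDF2L1, which forms a complex with DNAJB11, measured 94.2, 88.4 and 82.6 CPM in 2D, 176, 191 and 188 CPM at day 7 and 217, 110.5 and 117 CPM at day 14. All 3D samples were above 2D, with the highest value in 3D_14d replicate 1 (log2 fold change 1.07, SE 0.22, adjusted p = 0.00196 at day 7, and log2 fold change 0.74, SE 0.22, adjusted p = 0.0186 at day 14). The day 14 call of SDF2L1 was lost whichever of the 2D replicates was left out, with an adjusted p of 0.0502, 0.0708 and 0.0897 without replicates 1, 2 and 3.

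The other cofactors divided. HYOU1, the nucleotide exchange factor of BiP, rose at day 7 (log2 fold change 1.22, adjusted p = 0.0011) and stood at 0.14 at day 14, which was not called. CRELD2, a secreted stress-response protein, rose at day 7 (0.64, adjusted p = 0.0109), a call that was lost without 2D replicate 2, 2D replicate 3 or 3D_7d replicate 3. DNAJB9 (ERdj4), a BiP co-chaperone that represses IRE1, fell at day 7 (-0.72, adjusted p = 0.00155) and stood at -0.17 at day 14. HSP90B1 (GRP94), the Hsp90 of the ER, was not called at day 7 (0.20, adjusted p = 0.224) or day 14 (-0.26, adjusted p = 0.125). MANF and DNAJC3 (p58IPK, another co-chaperone) were called at neither time, with log2 fold changes from -0.34 to 0.20.

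Of the 6 lectin chaperones and disulfide isomerases, 3 rose and 0 fell at day 7 and 1 rose and 0 fell at day 14, and their log2 fold changes had medians of 0.42 and -0.22. CALR (calreticulin), which holds glycoproteins through their sugars during folding, measured 198, 202 and 197 CPM in 2D, 371, 469.8 and 436 CPM at day 7 and 325, 308 and 263 CPM at day 14. Its groups did not overlap in any comparison, and the order was day 7 above day 14 above 2D (log2 fold change 1.10, SE 0.14, adjusted p = 9.13e-05 at day 7, and log2 fold change 0.59, SE 0.14, adjusted p = 0.00625 at day 14). With no filter on expression, the day 14 call of CALR was lost (adjusted p = 0.0662). PDIA3 (ERp57), the isomerase that works with calreticulin, measured 783, 760.4 and 717 CPM in 2D, 1041, 1291 and 1127 CPM at day 7 and 864, 1012 and 853 CPM at day 14. Both 3D groups lay above 2D, and the rise was called at day 7 (log2 fold change 0.61, SE 0.14, adjusted p = 0.00339) and not at day 14 (log2 fold change 0.27, SE 0.14, adjusted p = 0.141). PDIA6, an isomerase that also acts on the stress sensors, measured 518, 497 and 475 CPM in 2D, 469, 561 and 583 CPM at day 7 and 389, 442 and 324 CPM at day 14. Its day 7 samples overlapped 2D and its day 14 samples all lay below 2D, with no call at either time (log2 fold change 0.11, SE 0.15, adjusted p = 0.564, and log2 fold change -0.37, SE 0.15, adjusted p = 0.0724). Of the rest, PDIA4 rose at day 7 (0.49, adjusted p = 0.0154), a call lost in 5 of the 6 fits without a 2D or day 7 replicate, while CANX (calnexin) at 0.35 and P4HB (PDI) at -0.03 were not called.

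**Figure D2:**
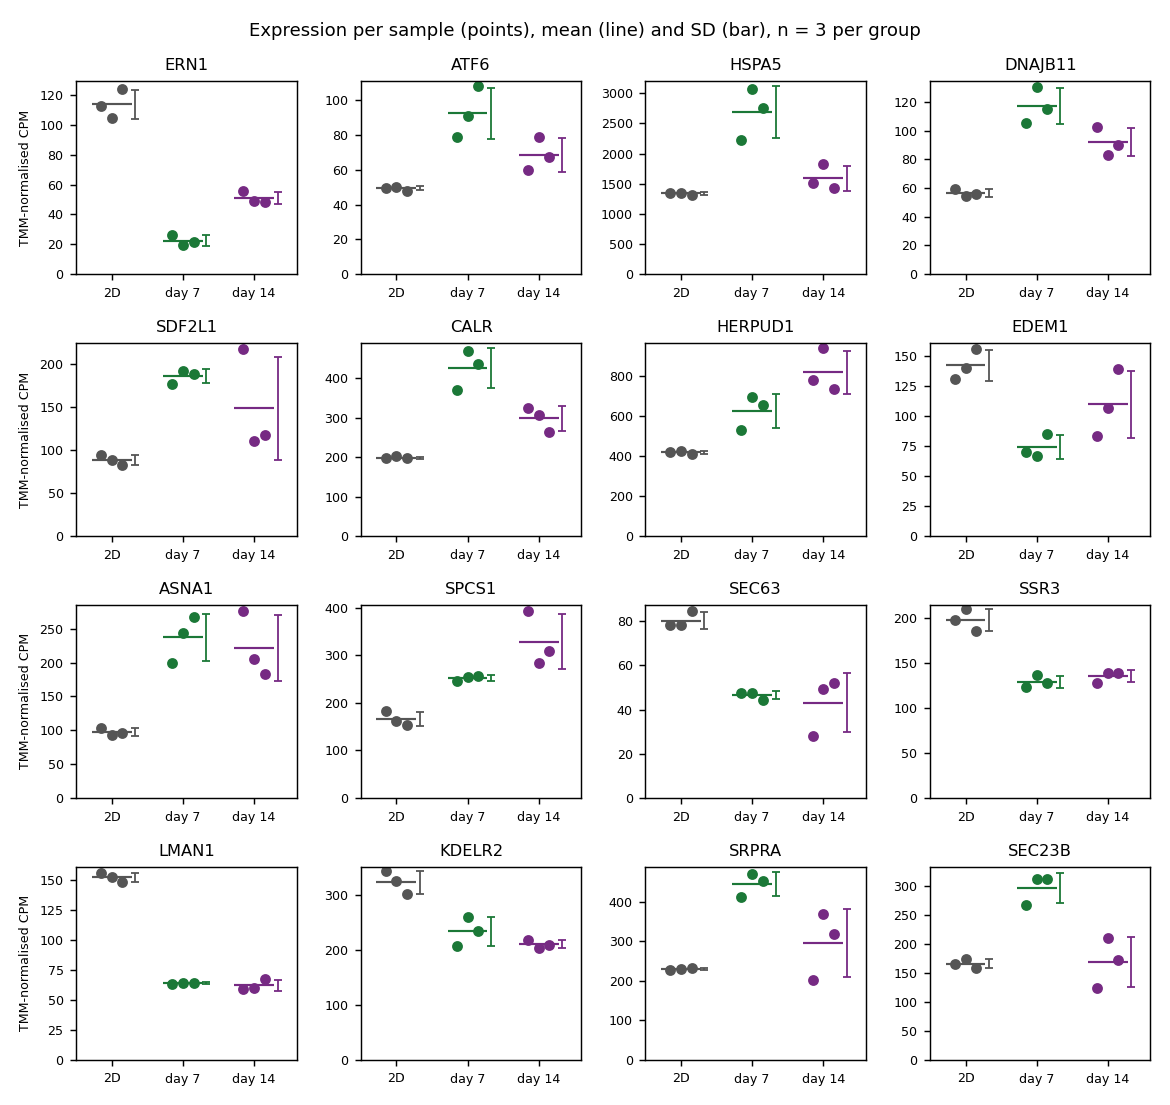
TMM-normalised CPM (y axis, from 0) of 16 members in each of the 9 samples, by group (x axis); points are samples, the line is the mean and the bar the SD (n = 3 per group). HSPA5, CALR and SEC23B are highest at day 7 and lower at day 14, ERN1 is lowest at day 7, and LMAN1, SSR3 and KDELR2 are below 2D in every 3D sample.

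The 2 stress sensors among the members went in opposite directions. PERK (EIF2AK3), outside the members, was not called at day 7 (log2 fold change -0.12, adjusted p = 0.668) or day 14 (0.12, adjusted p = 0.675). ATF6B, also outside them, fell at both times (-0.86, adjusted p = 0.00134, and -0.98, adjusted p = 7.98e-04). ERN1 (IRE1), the kinase and RNase that splices XBP1 mRNA, measured 112, 105 and 124 CPM in 2D, 26.3, 19.4 and 21.3 CPM at day 7 and 55.9, 48.7 and 48.4 CPM at day 14. The groups were fully apart in the order 2D, day 14 and day 7 from high to low. ERN1 fell to a ratio of 0.196 of the 2D level at day 7 (log2 fold change -2.35, SE 0.16, adjusted p = 2.56e-06), the lowest value of any member, and was at 0.449 of it at day 14 (log2 fold change -1.16, SE 0.15, adjusted p = 1.65e-04), with a rise between the time points (log2 fold change 1.19, SE 0.16, adjusted p = 3.43e-04). ATF6, the sensor that is cut in the Golgi to release a transcription factor, measured 49.5, 50.3 and 48.1 CPM in 2D, 79.0, 91.0 and 108 CPM at day 7 and 59.8, 78.7 and 67.2 CPM at day 14. All 3D samples were above all 2D samples, at day 7 (log2 fold change 0.91, SE 0.16, adjusted p = 6.24e-04) and at day 14 (log2 fold change 0.48, SE 0.16, adjusted p = 0.0301). The day 14 call of ATF6 was lost in 5 fits that left out 1 sample, with an adjusted p of 0.102, 0.106 and 0.127 without replicates 1, 2 and 3 of 2D, of 0.0574 without 3D_7d replicate 2 and of 0.0839 without 3D_14d replicate 2. ERN1 lies at chr17:64039142-64130819 and ATF6 at chr1:161766320-161964070 (GRCh38).

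In ER-associated degradation, 1 of 4 members rose and 1 fell at day 7. HERPUD1, which recruits ubiquitin ligases to the degradation complex, measured 422, 423 and 411 CPM in 2D, 529.5, 694 and 654 CPM at day 7 and 779, 938 and 736 CPM at day 14. The groups did not overlap, with 2D lowest and day 14 highest (log2 fold change 0.58, SE 0.15, adjusted p = 0.0071 at day 7, and log2 fold change 0.97, SE 0.15, adjusted p = 4.09e-04 at day 14). The day 7 call of HERPUD1 had an adjusted p of 0.0558 without 3D_7d replicate 2. EDEM1, which trims mannose to mark glycoproteins for removal, measured 131, 139.7 and 156 CPM in 2D, 69.8, 66.7 and 85.4 CPM at day 7 and 83.4, 106 and 139 CPM at day 14. The day 7 samples all lay below 2D and the day 14 samples overlapped it (log2 fold change -0.95, SE 0.18, adjusted p = 0.00139, and log2 fold change -0.38, SE 0.18, adjusted p = 0.125). SEL1L and SYVN1 (HRD1), the core of the degradation channel, were not called at day 7 or day 14, with log2 fold changes from -0.29 to 0.18.

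Entry into the ER gave a mixed picture. Of 8 SRP and receptor genes, 2 rose at day 7 and 0 fell (median 0.29), and at day 14 1 rose and 1 fell (median 0.19). SRPRA, the receptor subunit that docks SRP, measured 227, 231 and 233 CPM in 2D, 412, 470.4 and 452 CPM at day 7 and 202, 369.5 and 318 CPM at day 14. The day 7 samples were all above 2D, and the day 14 samples spread from below to above it (log2 fold change 0.95, SE 0.19, adjusted p = 0.00159 at day 7, and log2 fold change 0.36, SE 0.19, adjusted p = 0.148 at day 14). SRP54, the SRP subunit that binds the signal sequence, measured 120.3, 110.3 and 115 CPM in 2D, 170.0, 210.2 and 191 CPM at day 7 and 141, 147 and 152 CPM at day 14. All 3D samples were above 2D, with a call at day 7 (log2 fold change 0.73, SE 0.13, adjusted p = 8.35e-04) and an adjusted p just over the threshold at day 14 (log2 fold change 0.35, SE 0.13, adjusted p = 0.0504). SRP14, which with SRP9 slows translation, measured 798, 741 and 703 CPM in 2D, 742, 980.3 and 1006 CPM at day 7 and 1660, 999.6 and 888 CPM at day 14. The groups overlapped at day 7, while at day 14 every sample was above 2D and replicate 1 was highest (log2 fold change 0.28, SE 0.21, adjusted p = 0.304, and log2 fold change 0.66, SE 0.21, adjusted p = 0.029). The day 14 call of SRP14 was lost in 5 fits without 1 sample, among them that without 3D_14d replicate 1 (log2 fold change 0.34, adjusted p = 0.0769) and that without 2D replicate 3 (0.59, adjusted p = 0.126).

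SRP72, which pairs with SRP68 in the particle, measured 214, 207 and 198 CPM in 2D, 142, 189 and 176 CPM at day 7 and 131, 128 and 140.4 CPM at day 14. Every 3D sample lay below every 2D sample, called at day 14 (log2 fold change -0.63, SE 0.14, adjusted p = 0.00393) and not at day 7 (log2 fold change -0.29, SE 0.14, adjusted p = 0.113). SRP9, SRP19, SRP68 and SRPRB were called against 2D at neither time, with log2 fold changes from -0.20 to 0.33. ASNA1 (GET3), the ATPase that delivers tail-anchored membrane proteins to the ER, measured 104, 92.9 and 96.2 CPM in 2D, 199.8, 244 and 268 CPM at day 7 and 276, 205 and 184 CPM at day 14. The 3D samples exceeded the 2D samples at both times (log2 fold change 1.28, SE 0.17, adjusted p = 1.24e-04 at day 7, and log2 fold change 1.18, SE 0.17, adjusted p = 3.01e-04 at day 14), the highest fold change of any member in both comparisons. ASNA1 lies at chr19:12737139-12748323.

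The Sec61 translocon and its partner, the TRAP complex (SSR1 to SSR4), was the role with the most members down: 4 of 9 fell and 1 rose at day 7 (median -0.55), and 3 of 9 fell and 0 rose at day 14 (median 0.00). SEC63, which couples BiP to the channel, measured 78.2, 78.1 and 84.5 CPM in 2D, 47.5, 47.7 and 44.4 CPM at day 7 and 27.8, 49.4 and 52.0 CPM at day 14. All 3D samples were below 2D, and 3D_14d replicate 1 was the lowest (log2 fold change -0.79, SE 0.20, adjusted p = 0.00726 at day 7, and log2 fold change -0.90, SE 0.20, adjusted p = 0.00432 at day 14). SSR3, a TRAP subunit, measured 197, 209.9 and 185 CPM in 2D, 124, 136 and 127 CPM at day 7 and 128, 139 and 139 CPM at day 14. Its 3D samples lay below 2D at both times (log2 fold change -0.61, SE 0.13, adjusted p = 0.00187, and log2 fold change -0.55, SE 0.13, adjusted p = 0.00486). SSR1, another TRAP subunit, measured 241, 261 and 254 CPM in 2D, 205, 205 and 208 CPM at day 7 and 156, 168 and 182 CPM at day 14. Its groups were apart in the order 2D, day 7 and day 14 from high to low, and the fall was called at day 14 (log2 fold change -0.58, SE 0.12, adjusted p = 0.0034) and not at day 7 (log2 fold change -0.29, SE 0.12, adjusted p = 0.076). The remaining TRAP subunits SSR2 (-0.62, adjusted p = 0.00903) and SSR4 (-0.59, adjusted p = 0.0325) fell at day 7 and stood at 0.00 and 0.20 at day 14, and the call of SSR4 at day 7 was lost in 4 fits without 1 sample. SEC61A1, the channel itself, was called up at day 7 (0.50, adjusted p = 0.0392), a call lost in every fit without a 2D or day 7 replicate, and stood at -0.20 at day 14. Its small subunits SEC61B and SEC61G and the accessory SEC62 were called against 2D at neither time, with log2 fold changes from -0.55 to 0.53.

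**Figure D3:**
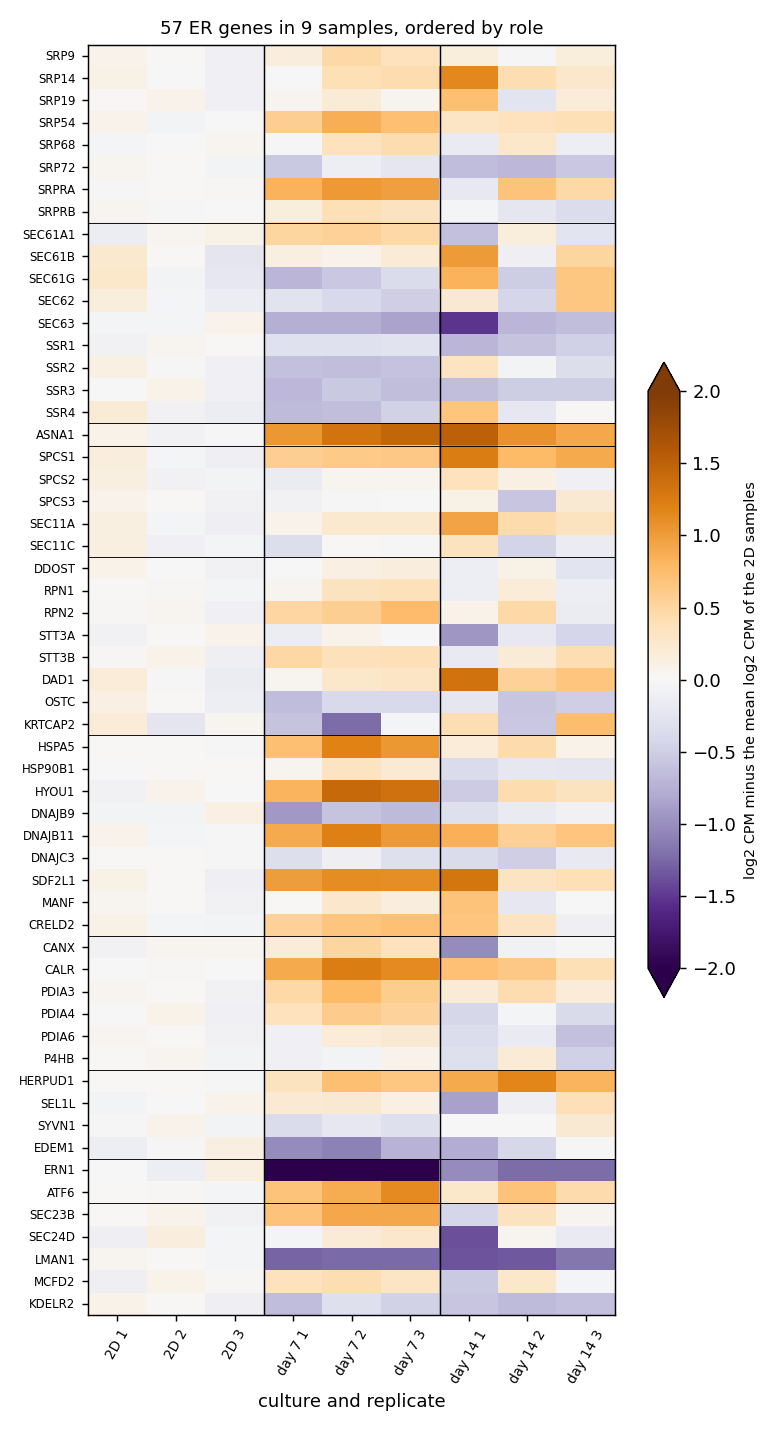
Log2 CPM minus the mean log2 CPM of the 2D samples (colour, cut at -2 and 2) for the 57 members (rows, by role) in the 9 samples (columns). The day 7 samples resemble each other, while 3D_14d replicate 1 is higher than the other day 14 samples for SRP14, SPCS1, SEC11A and DAD1 and lower for SEC63, STT3A and CANX; ERN1 lies beyond -2 in all day 7 samples.

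Signal peptide cleavage and glycosylation had 3 calls among 13 genes at day 7, against 43.4% of all tested genes called up or down. In the signal peptidase complex 1 of 5 genes rose at day 7 and 2 at day 14, and 0 fell. SPCS1, an accessory subunit, measured 183, 162 and 154 CPM in 2D, 245, 254 and 256 CPM at day 7 and 394, 283 and 309 CPM at day 14. The groups did not overlap, with 2D lowest and day 14 highest (log2 fold change 0.60, SE 0.15, adjusted p = 0.00636, and log2 fold change 0.98, SE 0.15, adjusted p = 3.94e-04), but 63.6% of the exonic bases of SPCS1 are shared with NEK4, so reads of the genes may be mixed. Its day 7 call had an adjusted p of 0.0539 without 2D replicate 2 and of 0.0591 without 2D replicate 3 for SPCS1. SEC11A, a catalytic subunit, measured 134, 119 and 114 CPM in 2D, 128, 144 and 144 CPM at day 7 and 234, 165 and 154 CPM at day 14. The day 14 samples all lay above 2D (log2 fold change 0.60, SE 0.17, adjusted p = 0.0142), and those of day 7 overlapped it (log2 fold change 0.18, SE 0.17, adjusted p = 0.392). The day 14 call of SEC11A had an adjusted p of 0.0769 without 2D replicate 2 and of 0.0883 without 2D replicate 3. SPCS2, SPCS3 and SEC11C were not called, with log2 fold changes from -0.11 to 0.13.

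Among 8 genes of the oligosaccharyltransferase, which attaches N-glycans, 1 rose and 1 fell at day 7 and 1 rose and 2 fell at day 14. RPN2 (ribophorin II) measured 411, 422 and 384 CPM in 2D, 572, 602 and 683 CPM at day 7 and 432, 557 and 366 CPM at day 14. Day 7 was above 2D without overlap (log2 fold change 0.61, SE 0.16, adjusted p = 0.00902), and day 14 overlapped it (log2 fold change 0.15, SE 0.16, adjusted p = 0.48). The day 7 call of RPN2 had an adjusted p of 0.0571 without 2D replicate 3 and of 0.0595 without 3D_7d replicate 3. DAD1, a small subunit needed for stability of the complex, measured 267, 231 and 213 CPM in 2D, 246, 283 and 292 CPM at day 7 and 597, 342 and 375 CPM at day 14. The day 7 samples overlapped 2D, and at day 14 all were above it, with the highest in replicate 1 (log2 fold change 0.21, SE 0.20, adjusted p = 0.41, and log2 fold change 0.89, SE 0.20, adjusted p = 0.00416). OSTC, which links the enzyme to the translocon, measured 158, 145 and 134 CPM in 2D, 92.8, 109.9 and 109.9 CPM at day 7 and 124, 97.7 and 104 CPM at day 14. All 3D samples were below 2D (log2 fold change -0.48, SE 0.14, adjusted p = 0.0165, and log2 fold change -0.42, SE 0.14, adjusted p = 0.0347), but the call of OSTC was lost in 2 fits without 1 sample at day 7 (adjusted p = 0.056 and 0.0639) and in 5 at day 14 (adjusted p from 0.0524 to 0.123), and at day 7 also with a length trend removed (adjusted p = 0.136). STT3A, a catalytic subunit, was called down at day 14 (-0.49, adjusted p = 0.0418), a call lost in 5 fits without 1 sample, while STT3B, RPN1, DDOST and KRTCAP2 were not called at either time. KRTCAP2 was the member with the lowest level, at most 2.5 CPM, and 82.4% of its exonic bases are shared with AL713999.1.

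Of the 5 genes of COPII vesicles, cargo receptors and retrieval, which carry cargo out of the ER and return residents to it, 1 rose and 2 fell at day 7, and 0 rose and 2 fell at day 14. LMAN1 (ERGIC-53), the lectin that carries glycoproteins to the Golgi, measured 156, 153 and 148 CPM in 2D, 63.1, 64.3 and 64.4 CPM at day 7 and 58.9, 60.1 and 67.5 CPM at day 14. The 3D samples of both times lay far below 2D and overlapped each other (log2 fold change -1.25, SE 0.13, adjusted p = 1.76e-05 at day 7, and log2 fold change -1.29, SE 0.13, adjusted p = 2.10e-05 at day 14). KDELR2, the receptor that returns escaped ER chaperones, measured 343, 326 and 301 CPM in 2D, 207, 260.3 and 235 CPM at day 7 and 218, 204 and 209.9 CPM at day 14. All 3D samples were below 2D (log2 fold change -0.47, SE 0.13, adjusted p = 0.0134, and log2 fold change -0.62, SE 0.13, adjusted p = 0.00348), and the day 7 call of KDELR2 was lost with no filter on expression (adjusted p = 0.121). SEC23B, a subunit of the COPII coat, measured 166, 175 and 158 CPM in 2D, 267, 313 and 312 CPM at day 7 and 124, 211 and 173 CPM at day 14. It was above 2D in every day 7 sample and overlapped 2D at day 14 (log2 fold change 0.84, SE 0.18, adjusted p = 0.00241, and log2 fold change 0.02, SE 0.18, adjusted p = 0.931). MCFD2, the partner of LMAN1, and SEC24D, the cargo-binding COPII subunit, were called at neither time, with log2 fold changes from -0.38 to 0.35. LMAN1 lies at chr18:59327823-59359265.

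Between the time points, which share the extraction, 7 members were higher and 12 lower at day 14 than at day 7, against a background of 14.5% and 13.6% of all tested genes, with a median of -0.18 for members and -0.0012 for all genes. Of 17 members called up at day 7, 8 fell between day 7 and day 14 and 0 rose, and of 10 called down at day 7, 5 rose and 0 fell. These counts rest on the same day 7 samples in both comparisons, which favours such reversals for any gene. The matching shares of all tested genes were not computed, so the reversals are not a result about the members. By role, 4 of 6 lectin chaperones and isomerases fell (CANX, CALR, PDIA4 and PDIA6), 3 of 8 SRP genes fell, and of the BiP group HSPA5, HSP90B1 and HYOU1 fell while DNAJB9 rose. Of 9 translocon and TRAP genes 3 rose (SEC61G, SSR2 and SSR4) and SEC61A1 fell. The counts depended on single samples. Without 3D_7d replicate 2, 2 members were higher and 5 lower at day 14, with 1193 and 1098 of all 13390 tested genes. Without 3D_7d replicate 3 the count of lower members was also 5, with 1092 of all 13407 tested genes. Without 3D_7d replicate 1 the count of higher members was 4, with 1699 of all 13364 tested genes.

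Relative to the members, immunoglobulin transcripts took a larger share of the counts in 3D than in 2D. IGHM and IGKC, the heavy and light chain constant genes, took 0.986% to 1.02% of all counts in 2D, 3.35% to 3.89% at day 7 and 3.43% to 5.08% at day 14, while the 57 members together took 1.488% to 1.496%, 1.549% to 1.805% and 1.352% to 1.439%. The ratio of IGHM plus IGKC to the members was 0.663 to 0.684 in 2D, 2.06 to 2.24 at day 7 and 2.42 to 3.76 at day 14, with no overlap between the groups. The mean of IGHM was 7109 ± 199 CPM in 2D, 23660 ± 1757 CPM at day 7 and 26340 ± 7659 CPM at day 14 (SD, n = 3), and that of IGKC was 2208 ± 234, 13970 ± 1710 and 19830 ± 6456 CPM. Their log2 fold changes were 1.73, adjusted p = 3.64e-05 and 1.89, adjusted p = 3.21e-05 for IGHM, and 2.66, adjusted p = 5.55e-06 and 3.17, adjusted p = 3.37e-06 for IGKC. Whether the immunoglobulin level plays a part in any member's change was not tested.

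Other genes of the same routes were read from a list of 92, of which 90 were tested (FKBP2 and TUSC3 were not). At day 7, 33 rose (36.7%) and 16 fell (17.8%), against the 22.2% and 21.2% of all tested genes given above, and at day 14, 20 rose (22.2%) and 11 fell (12.2%), against 19.0% and 17.2%. The same backgrounds apply to each count by role. The 12 stress regulators had 1 up and 6 down at day 7 and 1 up and 4 down at day 14. ATF4, the effector of the PERK branch, measured 623, 613 and 617 CPM in 2D, 202, 208 and 192 CPM at day 7 and 632, 548 and 476 CPM at day 14. Its day 7 samples were all far below 2D and its day 14 samples overlapped 2D (log2 fold change -1.62, SE 0.14, adjusted p = 7.23e-06, and log2 fold change -0.16, SE 0.14, adjusted p = 0.375). DDIT3 (CHOP), a target of ATF4, measured 154, 150.2 and 162 CPM in 2D, 39.8, 42.0 and 43.7 CPM at day 7 and 132, 103 and 84.8 CPM at day 14. The groups were apart in the order 2D, day 14 and day 7 from high to low (log2 fold change -1.90, SE 0.16, adjusted p = 7.56e-06, and log2 fold change -0.55, SE 0.16, adjusted p = 0.0179). XBP1, the substrate of IRE1, measured 616, 604 and 581 CPM in 2D, 639, 555 and 546 CPM at day 7 and 638, 717 and 617 CPM at day 14, with no call at day 7 (-0.05, adjusted p = 0.789) or day 14 (0.13, adjusted p = 0.457), and the counts per gene do not separate its spliced from its unspliced form.

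Of 17 tested folding factors outside the members, 7 rose and 7 fell at day 7, and 4 rose and 5 fell at day 14. MZB1, a cofactor of GRP94 in plasma cells, fell (log2 fold change -1.90, adjusted p = 1.19e-05 at day 7, and -1.06, adjusted p = 6.69e-04 at day 14), as did the isomerase PDIA5 (-0.83, adjusted p = 0.00423, and -1.35, adjusted p = 2.97e-04). In translocation, insertion and glycosylation, 9 of 21 rose and 1 fell at day 7, and 5 rose and 0 fell at day 14. EMC1 of the ER membrane insertase rose at day 7 (1.14, adjusted p = 1.33e-04) and not at day 14 (0.03, adjusted p = 0.906), and EMC7 rose at both (0.87, adjusted p = 0.00256, and 1.19, adjusted p = 5.02e-04). Degradation genes were called up in 8 of 17 at each time and down in 1 of 17. VCP (p97), the ATPase that pulls chains out of the ER, measured 395, 438 and 429.8 CPM in 2D, 1108, 1244 and 1259 CPM at day 7 and 669, 1007 and 758 CPM at day 14, with every 3D sample above 2D (log2 fold change 1.52, SE 0.16, adjusted p = 2.72e-05, and log2 fold change 0.95, SE 0.16, adjusted p = 7.67e-04). Its cofactor UFD1 rose too (1.46, adjusted p = 3.73e-05, and 1.18, adjusted p = 2.18e-04). Of 23 coat and retrieval genes 8 rose and 1 fell at day 7 and 2 rose and 1 fell at day 14, with SEC31B down at both times (-1.78, adjusted p = 1.43e-04, and -1.28, adjusted p = 0.00151) and COPB2 up at day 7 (0.88, adjusted p = 8.62e-04) and not at day 14 (0.27, adjusted p = 0.199).

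On the scale of levels per exon length, the members spanned 2.716 to 505.9 RPKM in 2D, with a median of 65.8, and the medians were 78.8 at day 7 and 66.0 at day 14. SRP14, DAD1 and HSPA5 led in 2D (means of 506, 346 and 341 RPKM), HSPA5 led at day 7 with 684 RPKM, and SRP14 and DAD1 led at day 14 with 801 and 641 RPKM. Length and change were related at day 14 across the members: Pearson's r between log2 exonic length and log2 fold change was -0.52 and Spearman's rho -0.50 over the 57 genes at day 14, and -0.17 and -0.12 at day 7, values that share the same libraries and are given without a test. The 10 members under 1500 bases had a median log2 difference from 2D of 0.91 in 3D_14d replicate 1, -0.09 in replicate 2 and 0.44 in replicate 3, and the other 47 had -0.19, -0.01 and -0.07. With a length trend removed from each library, 21 members were called at day 14, 19 of them shared with the 19 above. In that fit 2879 of all 13463 tested genes were called up and 2486 down. SRP14, SEC61B, DAD1 and SDF2L1 are among the short genes whose day 14 values are highest in replicate 1, and the part of gene length in their change was not tested.

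**Figure D4:**
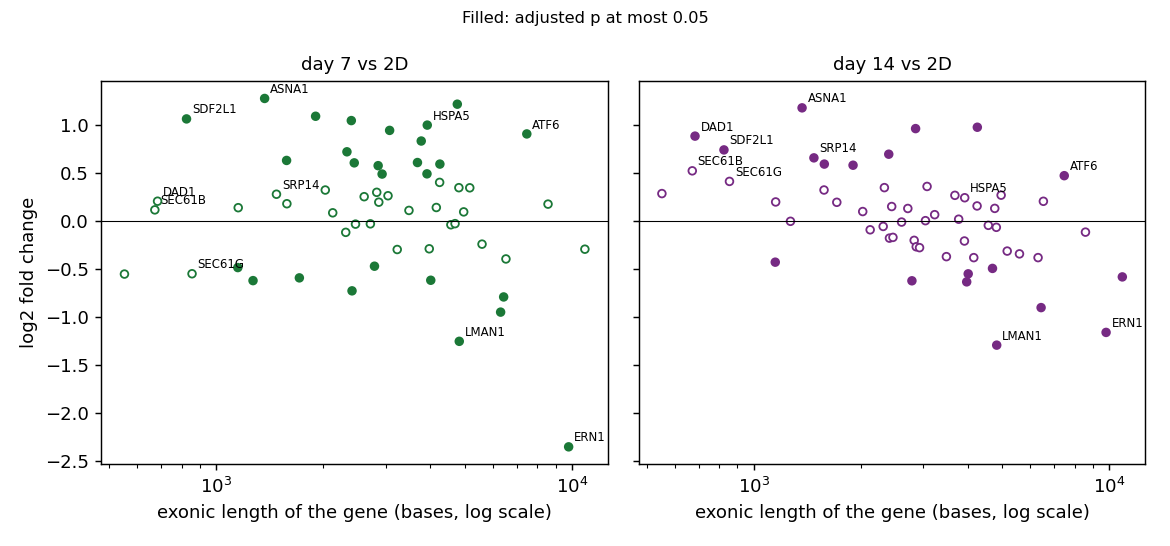
Log2 fold change against 2D (y axis) by exonic length in bases (x axis, log scale) for the 57 members at day 7 (left) and day 14 (right); filled points have an adjusted p of at most 0.05. At day 14 the short DAD1 and SRP14 lie above 0 and the long ERN1 below it (r = -0.52 over all members). The long ATF6 (7470 bases) and the short OSTC (1150 bases) go the other way. At day 7 the relation is weaker (r = -0.17).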

How the data were processed

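The authors trimmed single reads with Trimmomatic (version 0.39), aligned them to GRCh38 with STAR (version 2.5.3a) and assigned them to genes with featureCounts (version 1.6.4). The deposited values are these raw counts per gene symbol with each gene's exonic length. The strand setting and the treatment of reads with several alignments are not given in the sources used here. Totals per sample lay between 54662799 and 85968686 counts, and the spread between replicates exceeded counting error.

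From the counts, those symbols were kept that reached a CPM above 1 in 3 or more samples. In R (version 4.3.3), edgeR (version 4.0.16) gave TMM factors and 1 quasi-likelihood fit of all 9 samples with a mean per group. Each of 3 contrasts was adjusted over 13463 genes by the Benjamini-Hochberg method, and a standard error is the absolute log2 fold change divided by the square root of F. An exact permutation test of 3 against 3 samples cannot go below a two-sided p of 0.1 and was not used. Levels per length used the deposited exonic lengths. Shared exonic bases came from the positions in the same table, where 14 members shared over 10% of their bases and 31 shared none. Promoter windows of 300 bases came from RefSeq and were matched by symbol. SRPRA, ASNA1, SPCS1, RPN1, STT3B, PDIA3, SEC24D and KDELR2 had none.

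The members, the role lists, the list of 92 other genes and the marker lists were chosen with earlier results of these data known. The summed level of the B-cell markers is not reported here. Values in every sample are given, in each role, for the 2 members with the smallest p in either comparison with 2D and for both sensors. In the list of other genes, the 2 with the smallest p per role and XBP1 are named, and EIF2AK3 and ATF6B are given beside the sensors. GEO's replicate numbers were not treated as pairs. The alternatives were DESeq2's size factors, total counts, TMM without immunoglobulin, ribosomal protein and mitochondrial genes, the Wald test of DESeq2 (version 1.42.0), filterByExpr or no filter, only the 6 samples of a contrast, a replicate block, a length trend removed by loess (span 0.4), a minimum absolute log2 fold change of 1, and 9 fits without 1 sample. Leaving out members that share over 10% of exonic bases was added after the data were seen. On simulated counts for 3D_7d vs 2D (13149 genes), 99 genes were given a log2 change of 1 and 97 a change of 2, up or down. There edgeR recovered 47.5% of log2 changes of 1 and 86.6% of changes of 2, with 2.96% of calls on unchanged genes. In the data 43.4% of tested genes were called at day 7, so these shares do not carry over to the calls reported here.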

Additional observations from a re-analysis of the deposited data

Results flagged for a closer look

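For 19 members the change against 2D differed between day 14 and day 7 when that difference itself was tested (3D_14d vs 3D_7d, edgeR's quasi-likelihood test). These were 33.3% of the members, near the 28.1% of all tested genes that were called there. In the direction of a higher level at day 14 the log2 differences were 1.19 for ERN1, 0.96 for SEC61G, 0.79 for SSR4, 0.68 for DAD1, 0.62 for SSR2, 0.57 for EDEM1 and 0.55 for DNAJB9. In the direction of a lower level at day 14 they were -1.09 for HYOU1, -0.81 for SEC23B, -0.77 for PDIA4, -0.76 for HSPA5, -0.70 for SEC61A1, -0.66 for CANX, -0.58 for SRPRA, -0.51 for CALR, -0.50 for SRPRB, -0.48 for PDIA6, -0.46 for HSP90B1 and -0.37 for SRP54.

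ERN1, SEC61A1, HSPA5, HYOU1, PDIA4 and SEC23B were called in this comparison in all 20 fits that were run. With the length trend removed, the differences of SEC61G, SSR2, DAD1 and PDIA6 were no longer called. The call of SRP54 (adjusted p = 0.0483) held in 7 of the 20 fits and that of PDIA6 in 10.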

How the results depend on the processing

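No member called in a comparison changed its direction under any alternative. With the total counts alone as the scaling, the median log2 fold change of the members moved to 0.021 at day 7 and to -0.17 at day 14, with 6 up and 14 down at day 14. Using only the 6 samples of a contrast gave 22 up and 16 down at day 7, with 3800 and 3897 of all 13083 tested genes. For day 14 against day 7 it gave 5 down, with 1122 of all 12738 tested genes. There the Wald test of DESeq2 gave 11 up, with 2372 of all 13463 tested genes. With a minimum absolute log2 fold change of 1, 6 rose and 2 fell at day 7, 1 rose and 2 fell at day 14, and 1 rose and 1 fell between the time points. Of all 13463 tested genes, 2755, 2172 and 1456 were called up or down at this limit in the 3 comparisons. On the simulated counts, which hold far fewer changed genes than were called in the data, DESeq2 placed 15.6% of its calls on unchanged genes.

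In the fits without 1 sample, the counts up and down ranged from 12 to 22 and from 8 to 12 at day 7 (medians 0.083 to 0.21), from 6 to 12 and from 7 to 12 at day 14 (medians -0.0060 to 0.05), and from 2 to 10 and from 5 to 16 between the time points (medians -0.22 to -0.13). Over all tested genes (13163 to 13407), the counts up and down ranged from 2051 to 3603 and from 2227 to 3569 at day 7. At day 14 they ranged from 1564 to 2845 and from 1640 to 2463, and between the time points from 1193 to 2187 and from 1092 to 2141. Leaving out 2D replicate 3 set the day 7 median of the members to 0.083, and leaving out 3D_7d replicate 3 set it to 0.11. The count up at day 14 was 6 without 2D replicate 2 or 3.

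The replicate number as a block gave 27 of 27 shared calls at day 7, 19 of 19 at day 14 and 18 of 19 between the time points, where SRP54 was lost and STT3A gained. Same-numbered deviations from the group means correlated at 0.185, 0.108 and 0.093 for 2D and day 14. They correlated at -0.035, -0.018 and -0.100 for 2D and day 7, and at -0.016, -0.005 and -0.095 for the time points. Differently numbered ones ranged from -0.135 to 0.040 for 2D and day 14, where every same-numbered value was higher. For 2D and day 7 they ranged from -0.033 to 0.072, and for the time points from -0.053 to 0.081. These values do not settle whether the numbers pair the samples. Leaving out the 14 members that share over 10% of exonic bases gave 12 up and 7 down at day 7 and 7 up and 8 down at day 14. The shares of all tested genes were 22.2% and 21.2% at day 7 and 19.0% and 17.2% at day 14.

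Values that turned sign all belonged to differences that were not called. With total counts PDIA6 was -0.045 at day 7 and RPN2 was -0.055 at day 14, and in the fits without 1 sample RPN2 ranged from -0.022 (without 3D_14d replicate 2) to 0.29. SEC23B at day 14, 0.02 in the reported fit, was -0.17 with total counts, -0.0040 with TMM without immunoglobulin, ribosomal protein and mitochondrial genes, -0.029 without a filter, -0.0055 with the replicate block, -0.0059 with the block and the length trend, and between -0.16 (without 3D_14d replicate 2) and 0.21 in the fits without 1 sample. Between the time points, SEC63 was 0.0034 with the length trend removed, OSTC was -0.0003 without a filter and -0.29 with the length trend removed, with or without the block, and LMAN1 was 0.12 and 0.11 with the length trend removed, without and with the block. In the fits without 1 sample they ranged from -0.27 to 0.14 for SEC63, from -0.032 to 0.13 for OSTC and from -0.10 to 0.016 for LMAN1, each turned by leaving out 3D_14d replicate 1 (for OSTC also 3D_7d replicate 1), and from -0.27 to 0.024 for ASNA1, turned by leaving out 3D_7d or 3D_14d replicate 3. The cause was not tested. At 54662799 or more counts per library, the spread between replicates exceeded counting error over all tested genes (chi-square per gene of 22.5 or more). The parts of spread and depth were not separated for each member, and KRTCAP2 had only 35 to 139 counts per library.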
